A study of Mus musculus with 12 samples.

Results

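Endothelial cells line every blood vessel, and in the brain they also form the blood-brain barrier. The genes described here are 37 of the 25239 gene symbols counted in this series, taken by name as known endothelial and barrier genes. They fall into 11 barrier genes, of which 7 encode transporters of the brain capillary and 4 encode proteins of tight or other cell-cell junctions, and 26 general endothelial genes, which are not counted as genes of the barrier: 8 receptors, 3 secreted proteins or enzymes, 9 surface and adhesion molecules and 6 transcription factors. Their transcripts were counted by RNA sequencing in brain and liver of wild-type male C57BL6/J mice aged 24 months.

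The heat stress groups spent 3 hours a day for 15 days at 40 °C and 60% relative humidity, a model of a repeated heat wave, and the control groups did not. Each of the 4 groups (control brain, heat-stressed brain, control liver, heat-stressed liver) had 3 libraries. RNA came from weighed pieces of frozen tissue, and the region of the brain is not given in the sources used here. Totals ran from 10466198 to 15609040 counts per library, with 10552686 to 11147095 in heat-stressed brain and 11889432 to 14597197 in control brain. Levels are given in CPM, counts per 1000000 counts of the scaled library total. Replicate libraries differed by more than counting noise, with a chi-square per gene of 15.9 to 120.4 within the groups. The study used 3 animals per group, but because the labels do not tie a library to an animal, the p-values measure only the spread between these samples, which may be technical.

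At the barrier, claudin and occludin strands close the cleft between neighbouring endothelial cells, so that nutrients must cross through carriers, while efflux pumps return drugs and other foreign compounds to the blood. Wnt ligands from neural cells and signals from pericytes keep this state in place, and it is largely absent from the sinusoids of the liver, whose endothelium is fenestrated. Vessels of both organs depend on the receptors for vascular endothelial growth factor and for angiopoietins, and on transcription factors of the ETS and SOX families.

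In brain, most of these genes were at a lower level under heat stress, but none passed edgeR's test over all genes. Of the 37, 36 had enough counts to be tested among 14806 genes. With edgeR's quasi-likelihood test and Benjamini-Hochberg adjustment, 0 had an adjusted p under 0.05, as did 0% of all genes in either direction, and the smallest adjusted p of a member was 0.17. At an unadjusted p under 0.05, 24 members were lower and 0 were higher, whereas 10% of all tested genes were lower and 10% were higher. The 3 heat-stressed libraries lay entirely below the 3 controls for 21 members and entirely above them for 0, against 12% and 12.9% of all genes. The median log2 fold change (heat stress over control) of the members was -0.61, compared with -0.003 over all genes, and single members ranged from -1.35 to 0.21. In total, 33 of the 36 values were below 0, a direction shared by 50.3% of all genes.

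DESeq2 on the same 6 libraries gave an adjusted p under 0.05 to 6 members, all lower (Flt1, Adgrf5, Slc2a1, Slco1c1, Ly6c1 and Abcb1a), and 0 higher. Over all genes these shares were 3.66% and 3.91%. Only 14 of the 37 members received an adjusted p from DESeq2, since its filter on mean counts set the others aside, Pecam1, Kdr, Tek and Tie1 among them. In bulk tissue, fewer endothelial cells and less RNA of these genes per endothelial cell cannot be told apart.

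**Figure D1:**
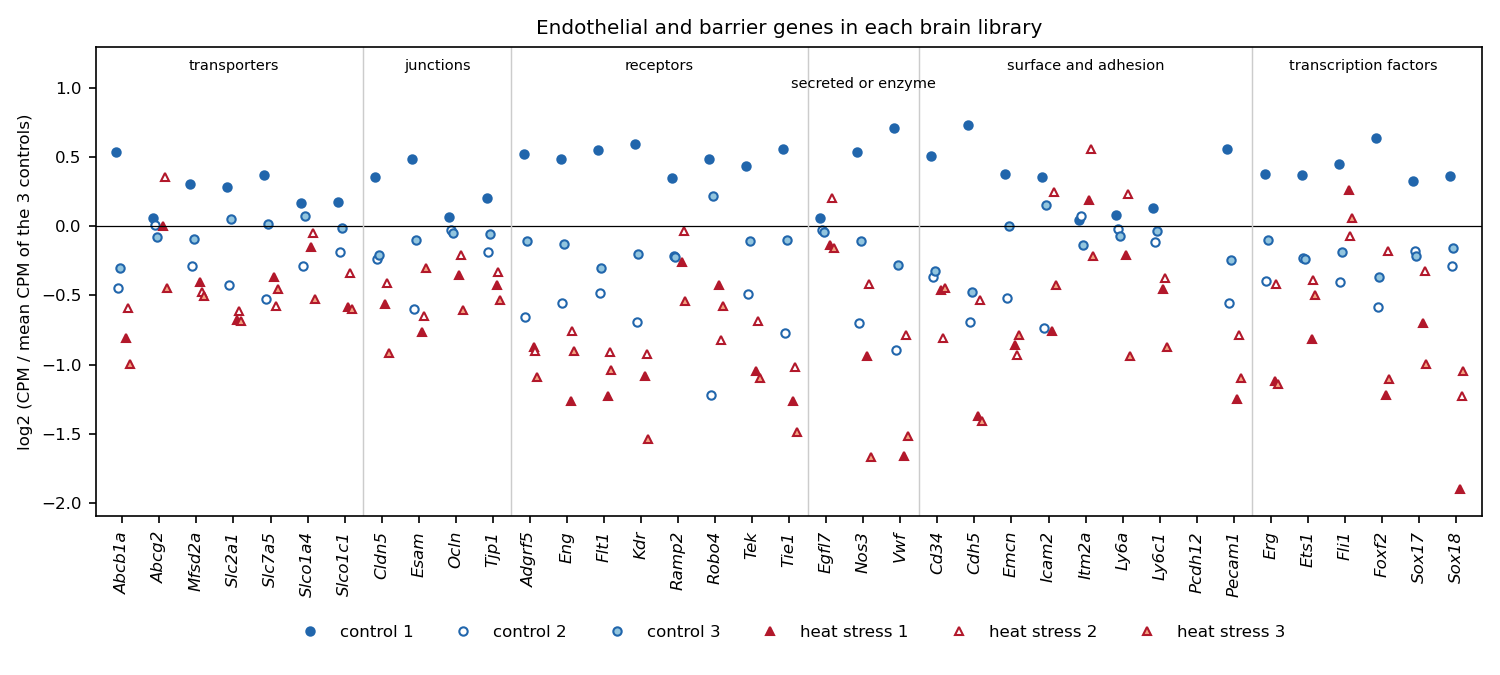
Each gene's CPM in the 6 brain libraries, as log2 of the ratio to the mean of the 3 controls. Columns are genes ordered by role, circles are control and triangles heat-stressed libraries. Control replicate 1 is the highest of the 6 libraries for 32 of 36 tested genes. For 21 genes all triangles lie below all circles, as was the case for 12% of all tested genes. Pcdh12 was too low to be plotted.

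Of the 7 barrier transporters, 6 had a brain log2 fold change below 0. Slc2a1 encodes the glucose carrier of the brain capillary and lies on chromosome 4 (119108711 to 119137983 in the build mm10, as for all gene positions here). It stood at 105, 64.2 and 89.2 CPM in control replicates 1, 2 and 3 and at 53.9, 56.4 and 53.6 CPM in the heat-stressed ones. All heat-stressed brains were thus below all controls, and the log2 fold change was -0.66 ± 0.17 (SE, n = 3 per group, adjusted p = 0.17, edgeR's quasi-likelihood test).

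Slco1c1, the thyroxine carrier, had 80.0, 62.2 and 70.3 CPM in controls and 47.3, 56.1 and 46.7 CPM under heat stress. The groups did not overlap either, with a log2 fold change of -0.50 ± 0.13. Abcb1a, which encodes the efflux pump P-glycoprotein, had 42.0, 21.2 and 23.4 CPM in controls and 16.5, 19.2 and 14.4 CPM under heat stress. Its log2 fold change was -0.79 ± 0.25, without overlap, but the lowest control exceeded the highest heat-stressed library by far less than control replicate 1 exceeded the other controls.

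Mfsd2a, a carrier of lysophospholipids that holds down transcytosis, had a mean of 16.1 ± 3.49 CPM (SD) in controls and 11.7 ± 0.444 CPM under heat stress, with separate groups and a log2 fold change of -0.46. Slc7a5, a subunit of the large neutral amino acid transporter, differed by the same -0.46, but its groups overlapped. The organic anion carrier Slco1a4 had a log2 fold change of -0.23 and the efflux pump Abcg2 one of 0.01, and neither reached an unadjusted p of 0.05. In all, 5 of the 7 transporters were lower at that level, beside 10% of all genes, with a median of -0.46.

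Among the junction genes, Cldn5 was examined as a protein in the study and encodes claudin-5, the main tight junction strand protein of brain endothelium (chromosome 16, 18776847 to 18778262). Its transcripts reached 40.2, 26.6 and 27.2 CPM in control brains and 21.2, 23.6 and 16.6 CPM in heat-stressed brains. The lowest control was above the highest heat-stressed library, and the log2 fold change was -0.62 ± 0.19 (adjusted p = 0.172 by edgeR's quasi-likelihood test and 0.0577 by DESeq2). Tjp1, which encodes the scaffold protein ZO-1 and is also made by other brain cells, had 109, 83.4 and 91.5 CPM in controls and 70.7, 75.2 and 65.4 CPM under heat stress. Its groups were likewise separate, at a log2 fold change of -0.43 ± 0.13.

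Ocln, the gene of occludin, differed by -0.38 ± 0.17 with an unadjusted p of 0.0513 from edgeR, and its groups did not overlap. For Esam, an adhesion molecule of endothelial junctions, the value was -0.56 ± 0.27 and control replicate 2, at 8.90 CPM, lay between heat-stressed replicates 2 and 3. Thus 2 of the 4 junction genes were lower at an unadjusted p under 0.05, and 3 of 4 were separate. Over all genes, 10% were lower at that level and 12% lay lower without overlap. The median of the junction genes was -0.50. Over all 11 barrier genes the median log2 fold change was -0.46, with 7 lower at an unadjusted p under 0.05 and 7 without overlap, against the same shares.

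The receptors had the lowest median of the 6 roles, -0.96, and all 8 were below 0. Flt1 encodes the receptor VEGFR1, which binds vascular endothelial growth factor (chromosome 5, 147561604 to 147726011). Its values were 94.6, 46.2 and 52.4 CPM in controls and 27.4, 34.3 and 31.3 CPM in heat-stressed brains. The groups did not overlap, and the log2 fold change of -1.06 ± 0.25 had an adjusted p of 0.17 with edgeR and 0.00659 with DESeq2. Kdr, the gene of the main signalling receptor VEGFR2, had 23.7, 9.69 and 13.6 CPM in controls and 7.39, 8.24 and 5.38 CPM under heat stress, without overlap and with a log2 fold change of -1.16 ± 0.32.

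Tie1 and Tek encode the receptors of the angiopoietin pathway, of which TEK binds the ligands and TIE1 acts with it. Tie1 had 16.1, 6.37 and 10.2 CPM in controls and 4.52, 5.37 and 3.87 CPM under heat stress, a log2 fold change of -1.25 ± 0.32. Tek had 18.4, 9.69 and 12.6 CPM against 6.56, 8.42 and 6.33 CPM, at -0.94 ± 0.25. Both genes were separate between groups, with control replicate 1 highest and control replicate 2 nearest to the heat-stressed libraries.

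Eng, which encodes endoglin, a co-receptor for ligands of the TGF-beta family, had 29.2, 14.2 and 19.1 CPM in controls and 8.68, 12.4 and 11.1 CPM under heat stress. Adgrf5, an adhesion G protein-coupled receptor, had 54.1, 23.9 and 35.0 CPM against 20.6, 20.2 and 17.7 CPM. Neither gene's groups overlapped, and both log2 fold changes were -0.96 ± 0.26. Robo4, a guidance receptor of endothelium, was at -0.61 ± 0.39 and Ramp2, the partner of the adrenomedullin receptor, at -0.27 ± 0.22, both with overlapping groups and unadjusted p above 0.05.

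Of the secreted proteins and enzymes, Vwf, the gene of von Willebrand factor, differed most. It had 24.0, 7.85 and 12.1 CPM in controls and 4.62, 8.51 and 5.10 CPM under heat stress, a log2 fold change of -1.27 ± 0.40 with 1 heat-stressed library above the lowest control. Nos3, the endothelial nitric oxide synthase gene, was at -0.92 ± 0.37 with overlapping groups. Egfl7, which encodes a protein secreted by endothelial cells, had 26.6 ± 1.07 CPM in controls and 26.3 ± 3.84 CPM under heat stress, a log2 fold change of -0.02 ± 0.13.

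Pecam1 (chromosome 11, 106654217 to 106750628) encodes the platelet and endothelial adhesion molecule CD31, whose protein was also examined in the study. It had 29.2, 13.4 and 16.7 CPM in control brains and 8.31, 11.5 and 9.26 CPM in heat-stressed brains. The groups were separate and the log2 fold change was -1.04 ± 0.28 (adjusted p = 0.17, edgeR's quasi-likelihood test). Pcdh12, the gene of an endothelial protocadherin named in the study, had only 11, 3 and 5 counts in controls and 0, 1 and 0 counts under heat stress. It failed the count filter of edgeR, and DESeq2 gave it an unadjusted p of 0.0158 but no adjusted p. With so few counts, no fold is given.

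Among the other surface genes, Ly6c1 had 36.1 ± 3.18 CPM in controls and 24.7 ± 4.33 CPM under heat stress, and Emcn, the gene of the sialomucin endomucin, had 7.02 ± 2.12 and 3.87 ± 0.194 CPM. Both were separate between groups, at log2 fold changes of -0.55 and -0.86. Cdh5, which encodes VE-cadherin of the adherens junction, was at -1.05 ± 0.40 with 1 heat-stressed library inside the control range, and Cd34 at -0.56 ± 0.23 without overlap. The remaining surface genes did not reach an unadjusted p of 0.05: Icam2 was at -0.26, Ly6a at -0.22 and Itm2a at 0.21.

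The transcription factors had a median of -0.71, and 4 of the 6 were lower at an unadjusted p under 0.05, beside 10% of all genes. Sox18, a regulator of vessel identity (chromosome 2, 181669836 to 181671640), had the lowest fold change of the tested members with all libraries in the fit, though not without every single library. It was at 7.54, 4.80 and 5.26 CPM in controls and 1.57, 2.51 and 2.83 CPM under heat stress, with separate groups and a log2 fold change of -1.35 ± 0.29 (adjusted p = 0.17, edgeR's quasi-likelihood test). Its relative Sox17 differed by -0.65, and the ETS factors Erg and Ets1 by -0.85 and -0.56, each without overlap. Foxf2, a forkhead factor of brain vessels and pericytes, was at -0.76 ± 0.41 with overlapping groups, and the ETS factor Fli1, also expressed by blood cells, at 0.08 ± 0.26.

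Over the 25 general endothelial genes tested, the median was -0.85 (a median difference of -44.7%), compared with a median of -0.46 (-27.5%) for the 11 barrier genes. Of the 25, 17 were lower at an unadjusted p under 0.05 and 14 lay lower without overlap, beside 10% and 12% of all genes. Whether barrier genes differed less than general ones within the same library was examined as ratios of CPM. Cldn5 over Pecam1 was 1.38, 1.98 and 1.63 in control brains and 2.56, 2.06 and 1.80 in heat-stressed brains. These ranges overlapped, and the exact two-sided permutation test gave p = 0.2, where 0.1 is the smallest p that 3 against 3 allows.

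The ratio of Tjp1 to Pecam1 was 3.75, 6.21 and 5.49 in controls and 8.51, 6.56 and 7.06 under heat stress, without overlap, at the smallest exact permutation p of 0.1. Slc2a1 and Abcb1a over Pecam1 each had an exact p of 0.2, and Cldn5 over Cdh5 one of 0.4. Over the 10 ratios examined in both tissues, the smallest permutation p after Benjamini-Hochberg adjustment was 0.5. As no exact p can be smaller than 0.1 here, no ratio could fall under 0.05. The test thus cannot decide whether barrier and general genes differed by unlike amounts.

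**Figure D2:**
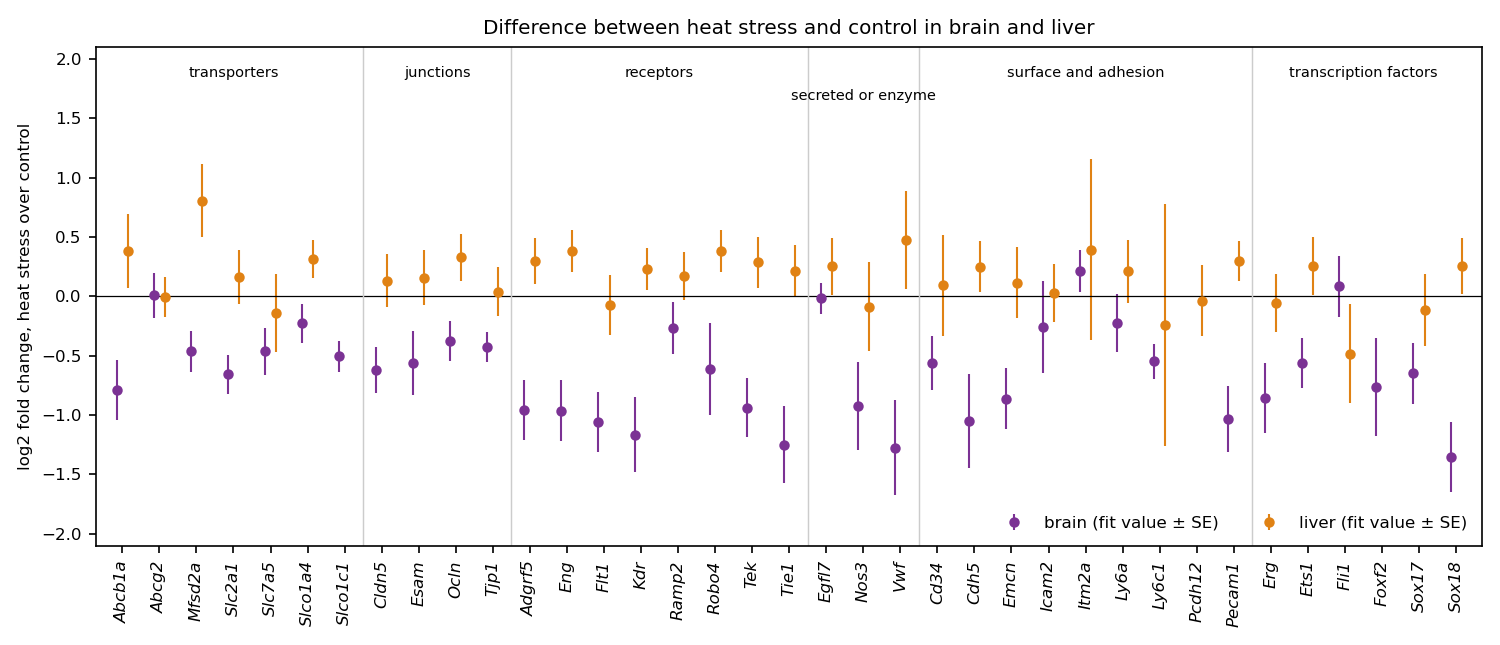
Log2 fold change of heat stress over control for each gene, as the edgeR estimate with its standard error, in brain (purple) and liver (orange). In brain, 33 of 36 points lie below 0 and in liver 26 of 35 lie above it, and no gene passed an adjusted p of 0.05 with edgeR in either tissue. DESeq2 gave an adjusted p under 0.05 to 6 of the genes in brain and to 0 in liver.

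The brain libraries were uneven within the control group. Control replicate 1 was the highest control for 35 of the 36 tested members and control replicate 2 the lowest for 28. The median ratio between these 2 libraries was 1.82 over all members, 1.51 for barrier and 1.90 for general endothelial genes. Relative to the control mean, the members' median log2 level was 0.37, -0.41 and -0.10 in the controls and -0.70, -0.44 and -0.82 in the heat-stressed libraries, so that control replicate 2 and heat-stressed replicate 2 lay close together. Without control replicate 1, 16 members were lower at an unadjusted p under 0.05 (5.90% of all genes), and the medians were -0.40 over all members, -0.31 for the barrier and -0.48 for the general genes. Of the 24 members lower at that level with all libraries, 14 moved by over 1.5 times in log2 fold change without this library, and 0 did without any other. The log2 fold change was then -0.67 for Flt1, -0.73 for Kdr, -0.64 for Pecam1 and for Eng, -0.60 for Adgrf5, -0.71 for Vwf and -0.55 for Nos3. It was -0.46 for Cdh5, -0.22 for Cd34, -0.33 for Ets1, -0.42 for Abcb1a, -0.39 for Cldn5, -0.28 for Mfsd2a and -0.23 for Slc7a5. Of the other 12 members, 9 moved by as much or changed sign: Esam to -0.23, Foxf2 to -0.28, Robo4 to -0.28, Ramp2 to -0.05, Icam2 to -0.03, Slco1a4 to -0.13, Fli1 to 0.38, Abcg2 to 0.04 and Egfl7 to 0.02.

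Transcripts of some other structures also differed in level between the brain groups. All 14 choroid plexus markers were below 0 in brain, with a median of -1.10 and 8 lower at an unadjusted p under 0.05. At that level, 10% of all genes were lower and 10% higher. The summed level of the choroid plexus markers was 695 to 1260 CPM in controls and 315 to 588 CPM under heat stress. All 10 striatal markers were above 0, with a median of 1.15, 9 higher at an unadjusted p under 0.05, and a summed level of 524 to 933 CPM in controls and 899 to 1990 CPM under heat stress. No marker of either list was at 0 counts in any brain library. Markers of astrocytes, neurons and oligodendrocytes had medians of -0.13, -0.10 and 0.08. Of 11 markers of meningeal fibroblasts, 0 were called in either direction at an unadjusted p under 0.05 (median 0.05), but heat-stressed replicate 2 stood apart. Their summed level was 955 to 1332 CPM in controls, 773 and 715 CPM in heat-stressed replicates 1 and 3 and 2590 CPM in heat-stressed replicate 2, the library in which the members' median was also nearest to the controls. Without it, 24 members were lower at an unadjusted p under 0.05 (6.23% of all genes), and their median was -0.67. The part of these differences in tissue content in the endothelial result was not tested.

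**Figure D3:**
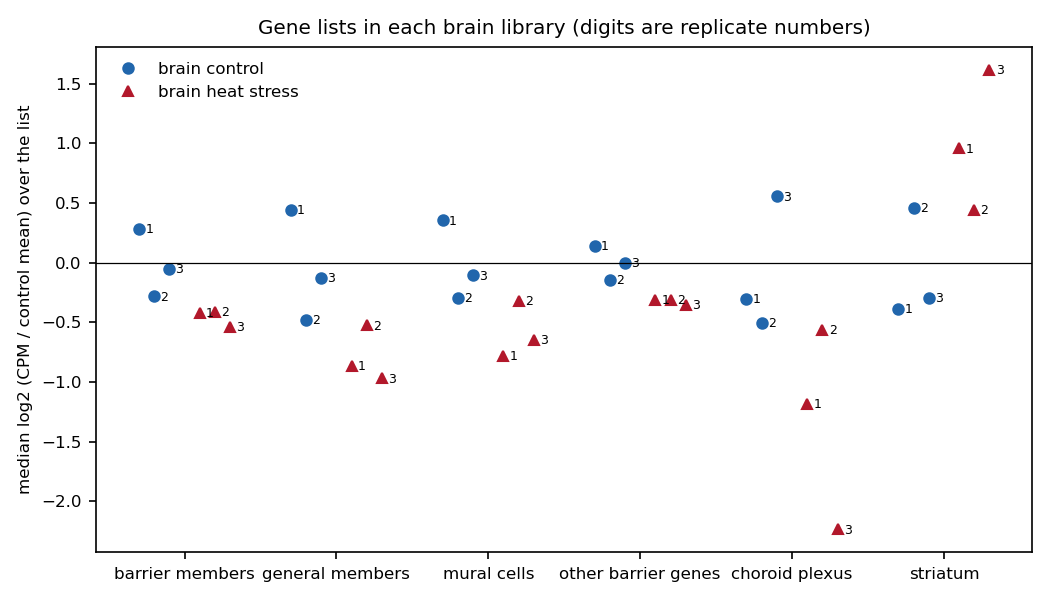
Median log2 ratio to the control mean over the tested genes of each list, in the 6 brain libraries. Circles are controls, triangles heat-stressed libraries, and digits the replicate numbers. The barrier and general endothelial medians of all heat-stressed libraries lie below all controls, and choroid plexus and striatal lists spread over a wider range.

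Longer transcripts had lower log2 fold changes in brain in general. Over all tested genes, sorted into 5 equal classes by summed exon length, the median log2 fold change went from 0.19 in the shortest to -0.14 in the longest class. The members' medians in the same classes were -0.51, -0.46, -0.93, -0.70 and -0.96, each below that of all genes. Across genes, which are not independent replicates, Pearson's r between log2 length and log2 fold change was -0.324 for 14562 genes, -0.485 for 25 general and 0.499 for 11 barrier members. With each library's trend on length and GC content removed, 22 members were lower at an unadjusted p under 0.05, compared with 5.69% of all genes, and the medians were -0.63 for all members, -0.54 for barrier and -0.75 for general genes. Ocln (-0.58), Slco1a4 (-0.40) and Ly6a (-0.59) were then also lower at that level. Vwf (-0.80), Nos3 (-0.74), Slc7a5 (-0.34), Ets1 (-0.44) and Sox17 (-0.53) no longer were. Itm2a turned to -0.235, Abcg2 to -0.14, Fli1 to -0.08 and Egfl7 to 0.10, and Ramp2 was at -0.17.

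**Figure D4:**
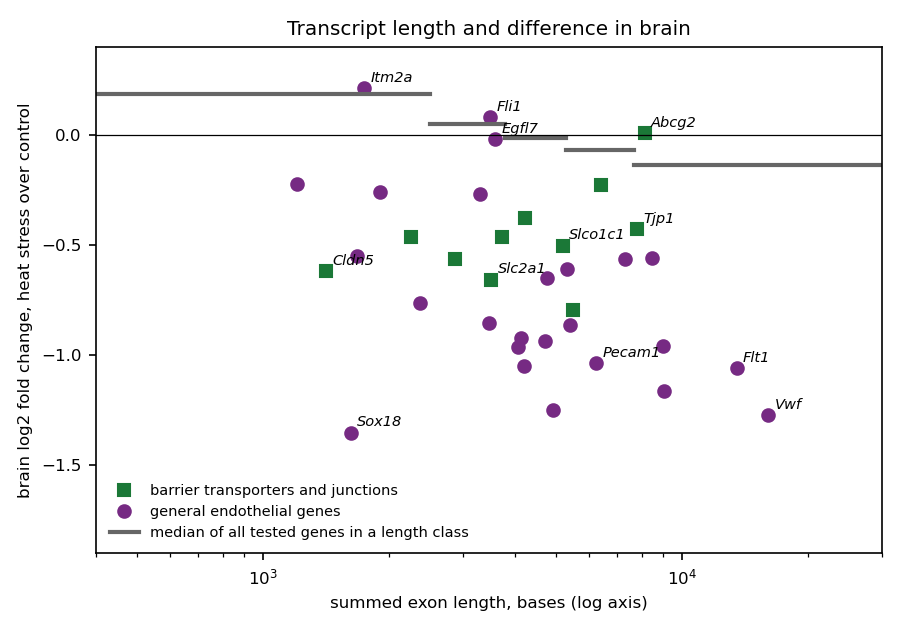
Brain log2 fold change of each tested gene against its summed exon length in bases (log axis). Squares are barrier and circles general endothelial genes, and grey bars give the median of all tested genes in each of 5 length classes. The grey bars step down from 0.19 to -0.14, and most members lie below them at every length.

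Genes that act with the members were counted in brain from lists of known genes, beside 10% of all genes lower and 10% higher at an unadjusted p under 0.05. Mural cells, the pericytes and smooth muscle that wrap the endothelium, had 7 of 14 tested markers lower at an unadjusted p under 0.05 and 0 higher, with a median of -0.65. Their summed level overlapped between groups, at 400, 278 and 311 CPM in controls and 236, 313 and 251 CPM under heat stress, with control replicate 1 highest. Notch3 was at -0.67 ± 0.18, Cspg4 at -0.66 ± 0.18 and Abcc9 at -0.87 ± 0.27, each without overlap. Of the partners of the endothelial receptors, 9 of 17 were lower and 0 higher, with a median of -0.37. The receptor Notch1 had 36.4, 32.5 and 33.1 CPM in controls and 21.4, 23.3 and 24.0 CPM under heat stress, a log2 fold change of -0.57 ± 0.11 with controls close to each other. Ptprb, the endothelial phosphatase that acts on TEK, was at -0.96 ± 0.26.

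In the Wnt pathway that keeps the barrier state, 6 of 20 genes were lower and 0 higher at an unadjusted p under 0.05 (10% and 10% of all genes), with a median of -0.16. With DESeq2, 3 were lower and 0 higher at that level (6.99% and 6.77% of all genes). Lrp5, a Wnt co-receptor, had 11.2, 9.69 and 10.8 CPM in controls and 6.28, 5.73 and 5.10 CPM under heat stress, a log2 fold change of -0.89 ± 0.17 without overlap, whereas the Wnt-responsive factor Lef1 was at -1.49 ± 0.44 with overlap. Of 28 further barrier genes, 9 were lower and 1 higher, with a median of -0.29. The higher one was Tfrc, the transferrin receptor that carries iron into the brain, at 0.36 ± 0.11. Ligands of the VEGF, angiopoietin and related families had 3 of 16 lower beside 10% of all genes, Apln at -0.34 and Slit2 at -0.30 among the 3, and 6 of the 16 were above 0. With DESeq2, 1 ligand was lower. Genes of activated or leaky vessels had 0 of 8 called in brain in either direction. No gene of these lists had an adjusted p under 0.05 in brain with edgeR, whereas DESeq2 gave one to 2 further barrier genes, Ctnnd1 (0.0224) and Spock2 (0.0155), and 2 receptor partners, Notch1 (0.0152) and Ptprb (0.0156), all lower. In liver, DESeq2 called 1 further barrier gene lower (0.276% of all genes) and 1 gene of the Wnt list higher (0.234%).

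Where members were lower together, the sequence before their start sites can be shown. RefSeq promoter entries (build GRCm38.p6, the assembly of mm10) were found for 23 of the 37 genes in the table used here, and the 250 bases before each listed start were searched on both strands for AGGAAG, letters bound by ETS factors such as the products of Erg, Ets1 and Fli1, and for the related ETS letters CCGGAAG. These versions of the motif cannot match at the same place. At least 1 match stood in 16 of 23 members (69.6%), in 12 of 14 general and 4 of 9 barrier genes, compared with 37.6% of 27018 symbols in the table. The only listed starts of Abcb1a, with a match, and Tjp1, without one, lie 92986 and 156537 bases from the gene's start in GENCODE M21. Counted by windows, as genes can have several starts, 59.4% of 32 member windows and 34.5% of all windows held a match. For ACAATG, letters bound by SOX factors, the share of genes was 13.0% of members and 12.2% of all, and for AGATAA, letters bound by factors of the GATA family, 8.70% and 11.4%. The general genes without a match were Kdr and Tek, at -1.16 and -0.94 in brain. Egfl7 and Itm2a, at -0.02 and 0.21, held up to 3 and 2 matches in a window. Whether matches go with the fold changes was not tested. A match describes the letters only.

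Shown are the receptor genes Flt1 and Eng with a match and Kdr without one, all with a low brain fold change, and the barrier genes Slco1c1 with a match and Cldn5 without one. They lie at chr5:147726012-147726261 (minus strand), chr2:32646345-32646594 (plus), chr5:75978456-75978705 (minus), chr6:141524104-141524353 (plus) and chr16:18776597-18776846 (plus). Each is written 5′ to 3′ on the strand of its gene and ends at the base before the RefSeq start, which lies 0 to 14 bases from the start of the gene in GENCODE M21 for these 5 genes, with the ETS letters in capitals. Where the match is on the other strand, the reverse complement is in capitals.
Flt1: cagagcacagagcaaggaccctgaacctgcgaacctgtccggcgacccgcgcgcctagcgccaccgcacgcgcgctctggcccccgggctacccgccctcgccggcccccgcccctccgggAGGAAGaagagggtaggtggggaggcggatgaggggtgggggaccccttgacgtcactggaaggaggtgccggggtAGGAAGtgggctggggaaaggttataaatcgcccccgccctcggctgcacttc
Eng: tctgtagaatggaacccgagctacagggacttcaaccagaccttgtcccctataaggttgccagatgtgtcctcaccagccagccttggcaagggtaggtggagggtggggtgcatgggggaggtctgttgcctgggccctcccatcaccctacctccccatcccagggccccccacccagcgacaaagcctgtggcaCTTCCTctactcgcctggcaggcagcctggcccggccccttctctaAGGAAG
Kdr: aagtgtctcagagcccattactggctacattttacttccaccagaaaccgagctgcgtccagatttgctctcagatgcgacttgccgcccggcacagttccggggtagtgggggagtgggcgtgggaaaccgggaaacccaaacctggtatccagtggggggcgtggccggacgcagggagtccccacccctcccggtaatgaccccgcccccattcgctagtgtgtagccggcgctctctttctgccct
Slco1c1: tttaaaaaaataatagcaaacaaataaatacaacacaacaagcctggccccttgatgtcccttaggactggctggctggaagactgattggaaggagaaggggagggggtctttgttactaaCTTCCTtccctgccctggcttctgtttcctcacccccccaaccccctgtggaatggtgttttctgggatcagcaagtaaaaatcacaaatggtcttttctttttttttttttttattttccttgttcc
Cldn5: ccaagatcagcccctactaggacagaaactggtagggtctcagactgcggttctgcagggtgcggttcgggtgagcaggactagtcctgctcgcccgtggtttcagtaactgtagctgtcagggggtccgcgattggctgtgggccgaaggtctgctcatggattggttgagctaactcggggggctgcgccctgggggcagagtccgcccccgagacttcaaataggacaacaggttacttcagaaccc

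The matches of Flt1 begin 129 and 53 bases before the start, those of Eng 52 and 6 bases and that of Slco1c1 128 bases.

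In liver, none of the same genes passed the test between heat stress and control. Of the 37, 35 were tested with edgeR among 12296 genes, and Slco1c1 (19, 0 and 1 counts in controls, 2, 3 and 1 under heat stress) and Foxf2 (0 counts in every library) were not. None had an adjusted p under 0.05 with edgeR's quasi-likelihood test or with DESeq2, where edgeR called 0% of all genes and DESeq2 0.276% as lower and 0.234% as higher. At an unadjusted p under 0.05, 1 member was higher and 0 were lower, compared with 2.97% and 2.87% of all genes. The groups were separate for 4 members, all higher, against 5.38% of all genes in that direction. The median log2 fold change was 0.21 (0.01 over all genes), with 0.16 for the barrier and 0.21 for the general genes, and 26 of 35 values were above 0, as were 51.8% of all genes. Markers of other liver cells were also mostly above 0: 9 of 9 of Kupffer cells (median 0.36), 7 of 8 of hepatocytes (0.17), 9 of 11 of mural cells (0.33) and 8 of 9 of fibroblasts (0.27). Of these markers, 1 of Kupffer cells was higher at an unadjusted p under 0.05 and 0 were lower. The summed level was 177 to 282 CPM in controls and 229 to 398 CPM under heat stress for Kupffer cells, and the groups overlapped for each of the 4 lists. The members' own summed level did not overlap, at 527 to 578 CPM in controls and 624 to 723 CPM under heat stress. Their median log2 level was -0.10 to 0.03 and 0.07 to 0.30. The part of the other liver cells in the members' values was not tested.

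The 1 higher member was Mfsd2a, which hepatocytes also express. It had 69.7, 36.2 and 42.3 CPM in control livers and 57.2, 118 and 84.6 CPM in heat-stressed livers, so the groups overlapped, with a log2 fold change of 0.81 ± 0.31 (adjusted p = 0.799, edgeR's quasi-likelihood test) that was 0.52 without heat-stressed replicate 2. The members with separate groups were Slco1a4, Eng, Robo4 and Pecam1. Pecam1 had 10.5, 11.2 and 11.2 CPM in controls and 13.9, 13.5 and 12.9 CPM under heat stress, a log2 fold change of 0.30 ± 0.17. Eng had 47.7, 42.8 and 38.4 CPM against 47.7, 62.6 and 57.7 CPM, with the lowest heat-stressed library barely above the highest control, at 0.38 ± 0.18.

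Slco1a4 was at 0.32 ± 0.16 and Robo4 at 0.38 ± 0.18. Of the other members with the lowest p or the largest size in liver, the fold changes were 0.33 for Ocln, 0.30 for Adgrf5, 0.29 for Tek, 0.38 for Abcb1a, 0.48 for Vwf, 0.39 for Itm2a and -0.48 for Fli1. Single libraries set several of these values: Fli1 was at -0.01 without control replicate 3 and -0.84 without control replicate 1, and Vwf at 0.25 without heat-stressed replicate 2 and 0.82 without control replicate 1. Without control replicate 1, Ocln was at 0.19, Adgrf5 at 0.15, Tek at 0.14 and Abcb1a at 0.65. Over each library left out, the other end of the range was 0.42 for Ocln, 0.50 for Adgrf5, 0.46 for Tek and 0.24 for Abcb1a. Cldn5 had 8.26, 10.2 and 9.51 CPM in controls and 8.64, 8.92 and 13.1 CPM under heat stress, and Pcdh12 had 3.23, 5.38 and 6.24 CPM against 5.21, 5.51 and 3.63 CPM. Both genes' groups overlapped, at 0.13 ± 0.22 and -0.04 ± 0.30.

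Skeletal muscle transcripts stood out in control replicate 1 and heat-stressed replicate 2 of the liver. The summed level of 12 muscle markers was 533 and 2822 CPM in those libraries and 1.40 to 8.83 CPM in the other 4, where up to 6 of the 12 were at 0 counts. Several members were also highest there, among them Itm2a, at 2.84 and 4.60 CPM against 0.571 to 1.12 CPM in the other livers, Ly6c1, at 2.78 and 2.51 CPM against 0.0815 to 0.746 CPM, and Cd34. The part of muscle tissue in these values was not tested. Neither carries the unexplained suffix that marks 1 control and 2 heat-stressed liver columns of the deposited table. With that suffix as a term, 3 of 35 members were higher and 0 lower at an unadjusted p under 0.05, against 4.3% and 4.2% of all genes, and none had an adjusted p under 0.05 with edgeR. Without the 2 libraries with muscle transcripts, 1 of 34 members was higher and 1 lower at an unadjusted p under 0.05, against 5.84% and 4.57% of all genes, and the members' median was 0.11. The higher member was Mfsd2a, at 0.84 with an edgeR adjusted p of 0.0651, and the lower member was Fli1, at -0.86.

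The difference between the tissues was tested directly in a fit of all 12 libraries. The effect in liver minus that in brain was above 0 for 34 of the 37 members, or 32 of the 34 tested in each tissue alone, with a median of 0.79 in both cases, compared with -0.04 over 15824 genes. No member had an adjusted p under 0.05 with edgeR's quasi-likelihood test (0.00632% of all genes were lower, namely Tfrc alone, and 0% higher), and DESeq2 gave 1, Eng, with an adjusted p of 0.0379 (0.264% of all genes in that direction and 0.173% in the other). At an unadjusted p under 0.05, 19 members (18 of those 34) had a higher effect in liver and 0 a lower one, against 3.73% and 5.91% of all genes. Foxf2 and Slco1c1, at or near 0 in liver, and Pcdh12, near 0 in brain, passed the count filter through 1 tissue, and no value is given for them. The 18 were 7 of 8 receptors, 5 of 10 barrier genes, 3 of 8 surface genes, 2 of 5 transcription factors and 1 of 3 secreted proteins or enzymes.

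The difference was 1.59 ± 0.39 for Sox18, 1.44 ± 0.43 for Tie1, 1.39 ± 0.39 for Kdr, 1.33 ± 0.35 for Eng, 1.32 ± 0.35 for Pecam1, 0.79 ± 0.32 for Slc2a1 and 0.74 ± 0.30 for Cldn5 on the log2 scale, where the adjusted p of each ran from 0.48 to 0.516 with edgeR. These values rest on the brain controls too: without brain control replicate 1, 12 of the 37 members had a higher effect in liver at an unadjusted p under 0.05 (3.30% of all genes), and without liver control replicate 2, also 12 (2.03%). Both counts are over all 37, without setting aside the 3 members that passed the filter through 1 tissue.

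Levels in unstressed tissue show how far each member marks the brain. Between control brain and control liver, 28 of the 37 members had an adjusted p under 0.05 with edgeR's quasi-likelihood test, 12 higher and 16 lower in brain, compared with 44.2% and 36.1% of all genes. The 12 include Slco1c1 and Foxf2 and the 16 include Pcdh12. These passed the count filter only through the tissue where they are high, so their calls carry no weight here. Per kilobase of exon, on the scale of all 12 libraries, Slco1c1 stood at 9.35 ± 1.21 CPM (SD, n = 3) in brain and 0.134 ± 0.211 CPM in liver, where 19 of its 20 control counts came from replicate 1. Slc7a5 was at 9.48 ± 2.87 and 0.755 ± 0.163 CPM per kilobase, Slc2a1 at 16.8 ± 4.07 and 4.11 ± 1.42, and Abcb1a at 3.61 ± 1.43 and 1.04 ± 0.384. These 4 transporters were higher in brain, Slc7a5, Slc2a1 and Abcb1a by log2 differences of 3.63, 2.03 and 1.78. No fold is given for Slco1c1, near 0 in liver.

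The other 3 transporters were lower in brain: Abcg2 (1.49 ± 0.0678 against 17.2 ± 0.951 CPM per kilobase), Mfsd2a (4.89 ± 1.07 against 33.0 ± 14.4) and Slco1a4 (6.11 ± 1.01 against 18.6 ± 2.07), genes that hepatocytes also express. Of the junction genes, Cldn5 (15.2 ± 3.73 against 9.67 ± 0.408) and Tjp1 were higher in brain and Ocln and Esam lower. Pecam1 did not pass the test, with 2.17 ± 0.917 CPM per kilobase in brain and 2.59 ± 0.0834 in liver, a log2 difference of -0.25 ± 0.24.

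Of the general genes, Flt1, Vwf, Cd34, Itm2a and Ly6c1 were higher in brain. Foxf2 had 146 counts over the 3 control brains and 0 over the control livers. It passed the count filter through brain alone, so its call carries no weight and no fold is given. The 11 lower ones included Kdr (a log2 difference of -2.21 ± 0.27), Eng (-2.15 ± 0.25) and Robo4 (-2.14 ± 0.31), and Sox18 lay just inside the threshold at an adjusted p of 0.0494 from edgeR. Pcdh12 is counted among the 11, but it passed the filter through liver alone and its call carries no weight. It had 11, 3 and 5 counts in control brains and 50, 66 and 67 in control livers, so no fold is given. The balance depends on how the organs are scaled: with library totals only, the median of all genes went from 0.24 to 1.33. Of all 37 members, 20 were then higher and 8 lower in brain.

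**Figure D5:**
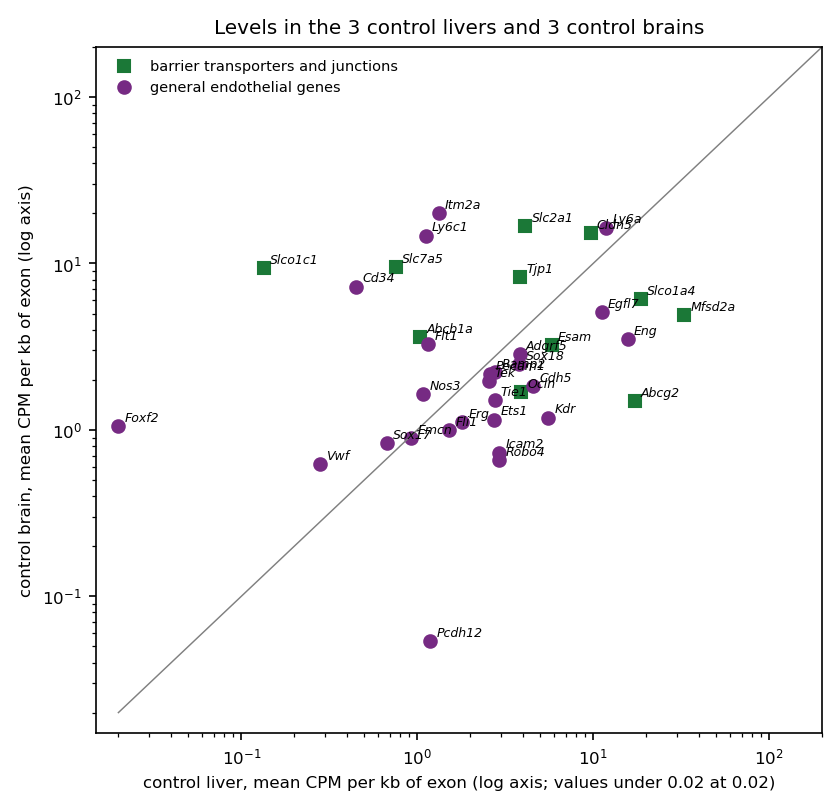
Mean CPM per kilobase of exon in control brain (vertical) against control liver (horizontal), both on log axes and on the scale of all 12 libraries, for barrier (squares) and general endothelial genes (circles). The line marks equal levels. Slco1c1, Slc7a5 and Foxf2 lie far above the line and Pcdh12 and Abcg2 far below it, and Foxf2, at 0 counts in liver, is drawn at the left limit.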

How the data were processed

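RNA from brain and liver was sequenced by the authors as poly(A)-selected, strand-specific paired-end libraries. They deposited whole-number counts per gene symbol for all 12 libraries in 1 table, in which 1 control and 2 heat-stressed liver columns carry a suffix (2nd) that is not explained in the sources used here. The submitters' processing notes name FastQC 0.11.9, Trimmomatic 0.39, HISAT2 2.2.1, featureCounts of Subread 2.0.1 and the build mm10, whereas the study's methods also name other alignment and counting tools, so the counter is uncertain. Further deposited tables hold the authors' own fold changes and p-values and were not used.

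Counts were scaled by TMM and tested with edgeR 4.0.16 (robust quasi-likelihood, filterByExpr with a minimum count of 10 and total of 15, R 4.3.3). Each tissue was fitted alone, and both tissues in 1 fit of 4 groups for the difference of effects and for the control tissues. Benjamini-Hochberg adjustment ran over all genes tested, and a call means an adjusted p under 0.05. CPM are counts per 1000000 of the TMM-scaled total. Exon length is the union of exons in GENCODE M21. Alternatives were DESeq2 1.42.0, other scalings and filters, a replicate block, the column suffix as a term in liver, length and GC offsets (mgcv 1.9.3) and leaving out each library. The procedures were tested on simulated data.

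The members and lists were chosen with earlier results of these data known. Genes were named by rule: Cldn5, Pecam1 and Pcdh12, the 8 members with the smallest p in a tissue, the 4 barrier and 4 general members with the largest fold change, members that were not tested, and up to 3 genes of each further list by p. Other members are named with levels and fold changes. With 3 samples per group the smallest exact permutation p is 0.1.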

Additional observations from a re-analysis of the deposited data

Results flagged for a closer look

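Eng and Pecam1 were the members whose heat-stressed libraries lay below all controls in brain and above all controls in liver. For Eng the liver groups nearly touched, at 47.725 CPM in heat-stressed replicate 1 and 47.704 CPM in control replicate 1. The log2 effect in liver minus that in brain was 1.33 ± 0.35 for Eng and 1.32 ± 0.35 for Pecam1. With edgeR's quasi-likelihood test over all genes, the adjusted p was 0.516 for each, and with DESeq2 it was 0.0379 for Eng and 0.0723 for Pecam1. The brain effects were -0.96 and -1.04 and the liver effects 0.38 and 0.30.

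Tfrc, the transferrin receptor, is no member but belongs to the list of further barrier genes, and hepatocytes express it too. It was the 1 gene of 15824 with an adjusted p under 0.05 for the difference between the tissues with edgeR's quasi-likelihood test. Its effect in liver minus that in brain was -1.84 ± 0.24 on the log2 scale (adjusted p = 0.0490, edgeR). In brain it had 133, 125 and 129 CPM in controls and 168, 180 and 152 CPM under heat stress, and in liver 51.7, 70.2 and 63.7 CPM against 27.3, 16.2 and 23.6 CPM. The groups were thus separate in each tissue, higher under heat stress in brain and lower in liver, at log2 fold changes of 0.36 ± 0.11 and -1.47 ± 0.22 with edgeR adjusted p of 0.17 and 0.126. Under 20 alternatives the difference lay between -2.004 and -1.67, and its adjusted p was under 0.05 in 5 of them, with a range of 1.07e-07 (DESeq2) to 0.386 (edgeR without brain control replicate 3).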

How the results depend on the processing

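In brain, all 14 named members that were tested kept their direction under all 238 combinations of member and alternative, although their size moved by over 1.5 times for many members without control replicate 1. The count of members with an adjusted p under 0.05 was 0 with edgeR under each alternative, including each library left out, 6 with DESeq2 on the 6 brain libraries and 1 (Sox18) with DESeq2 on all 12. Leaving out each library gave 16 to 28 members lower at an unadjusted p under 0.05 (5.90% to 13.3% of all genes) and medians of -0.76 to -0.40 over all members, -0.59 to -0.31 for the barrier and -1.02 to -0.48 for the general genes, where the value nearest to 0 is the one without control replicate 1. Without heat-stressed replicate 3, 1 member (Itm2a, at 0.39) was also higher at an unadjusted p under 0.05 (9.66% of all genes), against 0 without each other library. In liver, leaving out each library gave 0 to 3 members higher (1.78% to 7.11% of all genes) and 0 to 1 lower (1.45% to 5.78%) at an unadjusted p under 0.05, with 2 higher and 1 lower without control replicate 1, 3 higher without heat-stressed replicate 1, and 0 higher without control replicate 2, heat-stressed replicate 2 or heat-stressed replicate 3. There were 3 higher (3.71% of all genes) with length and GC offsets, 3 higher (4.3%) with the suffix of the column names as a term, and 1 lower without the 2 livers that carry muscle transcripts, where the last 2 alternatives were chosen after seeing the data. Among the 14 members named by rule in liver, the fold change changed sign for Cldn5 (-0.026 with the offsets, -0.030 with the offsets and the replicate block, and -0.10 to 0.22 without each library), for Pcdh12 (-0.29 to 0.16 without each library) and for Itm2a (-1.08 to 1.27 without each library, the lowest without heat-stressed replicate 2, and -0.21 without the 2 livers). Other members turned too. Among them were Ly6c1, at 1.38 without control replicate 1, and Ets1 and Ly6a, at -0.09 and -0.10 without the 2 livers. The cause was not tested. For the difference between the tissues, DESeq2 called 1 member, and leaving out each library gave 12 to 23 of all 37 members with a higher effect in liver at an unadjusted p under 0.05 (2.03% to 11.3% of all genes). Control brain against control liver gave 25 to 30 calls among all 37 members without each library, and with library totals only 20 higher and 8 lower.

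The labels do not say that a replicate number marks a shared animal or batch. The correlation of deviations between same-numbered control and heat-stressed libraries was -0.301, 0.232 and -0.204 in brain and -0.625, -0.546 and -0.0921 in liver. Between same-numbered brain and liver libraries it was 0.386, 0.389 and 0.127 in controls, each library correlating best with its own number, a hint of pairing in the control group, and 0.0567, -0.231 and 0.0263 under heat stress, so the numbers were not taken as pairs. Whether a brain and a liver came from 1 mouse is not given in the sources used here, and the fit of all 12 libraries treats them as separate. With a replicate block, 21 brain members were lower at an unadjusted p under 0.05 (9.42% of all genes, median -0.58), and edgeR called 0 in brain, 0 in liver, 0 for the difference and 25 between control tissues. Low counts limit Pcdh12 in brain and Slco1c1 and Foxf2 in liver.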

Other observations

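Genes of the liver sinusoid, whose endothelium takes up waste molecules from the blood, were counted as a further list. All 20 were tested in liver, 1 was higher at an unadjusted p under 0.05, 0 were lower (2.97% and 2.87% of all genes) and the median log2 fold change was 0.08, so the count was near that of all genes. The 1 was Dnase1l3, a secreted nuclease, with 32.7, 34.3 and 33.5 CPM in controls and 42.1, 45.9 and 44.3 CPM under heat stress. Its groups were separate and close within themselves, at a log2 fold change of 0.40 ± 0.15 (adjusted p = 0.799, edgeR's quasi-likelihood test). Lyve1, a hyaluronan receptor, was at 0.76 ± 0.39 and Wnt9b at 1.18 ± 0.64, each with overlap. Genes of activated or leaky vessels had 2 of 8 higher in liver and 0 lower at that level (2.97% and 2.87% of all genes). Of the 8, 7 were above 0, with a median of 0.32, and none had an adjusted p under 0.05 with edgeR or DESeq2. Their median log2 level was -0.22 to 0.10 in control and 0.41 to 0.53 in heat-stressed livers. Their summed level overlapped, at 113 to 156 CPM in controls and 150 to 176 CPM under heat stress.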
